A study of Mus musculus with 8 samples.

Results

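The syndecans are a family of 4 genes, *Sdc1*, *Sdc2*, *Sdc3* and *Sdc4*, and their transcript levels are described here in *gastrocnemius* and *tibialis anterior* (TA) of *Eif6*+/- and wild-type (WT) mice. They were chosen by the measured values of these arrays, namely the log2 ratio of *Eif6*+/- over WT and the intensities behind the ratio of *Sdc4*, so those ratios and intensities are given as a description, with no test. The family makes up 4 of the 20660 genes that could be named on the array, and each of its genes has a single probe, 4 of 55681 probes in all.

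Each of 8 arrays held RNA of 1 *Eif6*+/- mouse, in the dye Cy5, and of 1 WT mouse, in the dye Cy3, and there were 4 such pairs per muscle. The *Eif6*+/- mice carry 1 inactivated allele of *Eif6* in every cell of the body, the WT mice are their *Eif6*+/+ littermates, and all are C57BL6 males of 8 to 16 weeks with no treatment, paired at random within an age. The labels number the pairs 1 to 4 in each muscle and do not say whether a number stands for the same mice in both. Since *Eif6*+/- was always in Cy5, dye and genotype cannot be told apart within a muscle, and the same holds for muscle and the row of the slide, since each muscle filled 1 row.

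Syndecans are transmembrane proteins whose outer part carries heparan sulfate chains that bind growth factors and matrix proteins, and whose short inner tail binds the cytoskeleton and PDZ-domain proteins. In adult muscle, syndecan-3 and syndecan-4 are known from satellite cells, the stem cells of the muscle fibre. Syndecan-4 also sits in focal adhesions of many cell types, syndecan-2 is typical of fibroblasts and other mesenchymal cells, and syndecan-1 is typical of epithelia and plasma cells.

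All 4 probes were well above background in both channels on all 8 arrays, and none was saturated. On each array 38.7% to 48.6% of probes were well above background per channel, and the number of arrays limits the precision. The tissue label was checked with 11 genes of the skeletal muscle fibre, such as *Acta1* and *Ckm*. All 11 were well above background in each of the 16 samples, with a summed normalized intensity of 1124250 to 1337830 in WT *gastrocnemius* and 1147080 to 1382110 in WT TA.

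The genotype label was checked with *Eif6* itself, which codes for a factor that keeps the large ribosomal subunit from joining the small one too early. Its log2 level in *gastrocnemius* pairs 1 to 4 was 9.59, 9.75, 9.76 and 9.59 in *Eif6*+/- and 10.56, 10.90, 10.65 and 10.65 in WT. In TA the log2 level was 9.45, 9.49, 9.57 and 9.64 in *Eif6*+/- and 10.67, 10.52, 10.52 and 10.44 in WT. Every WT sample lay above every *Eif6*+/- sample, the WT samples of pair 4 included. The mean log2 ratio was -1.02 ± 0.11 (SD, n = 4, limma adjusted p = 0.0241) in *gastrocnemius* and -0.999 ± 0.174 (SD, n = 4, limma adjusted p = 0.0109) in TA. A call means an adjusted p under 0.1 throughout, and the *gastrocnemius* call was lost without pair 3 (adjusted p = 0.121) and without pair 4 (adjusted p = 0.156).

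*Sdc4*, the syndecan of focal adhesions, had log2 ratios of *Eif6*+/- over WT of 1.52, 1.45, 1.75 and 0.12 in *gastrocnemius* pairs 1 to 4. In TA pairs 1 to 4 the ratios of *Sdc4* were 1.54, 1.43, 1.42 and 0.0015. In both muscles, pairs 1 to 3 lay close together and pair 4 lay near 0. The mean was 1.21 ± 0.74 (SD, n = 4) in *gastrocnemius*, a fold of 2.32, and 1.098 ± 0.733 (SD, n = 4) in TA, a fold of 2.14. With Agilent's processed signals the means of *Sdc4* were larger, 2.06 in *gastrocnemius* and 2.03 in TA. The ratio was above 0 on all 8 arrays, except that TA pair 4 came to -0.029 with those signals.

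**Figure D1:**
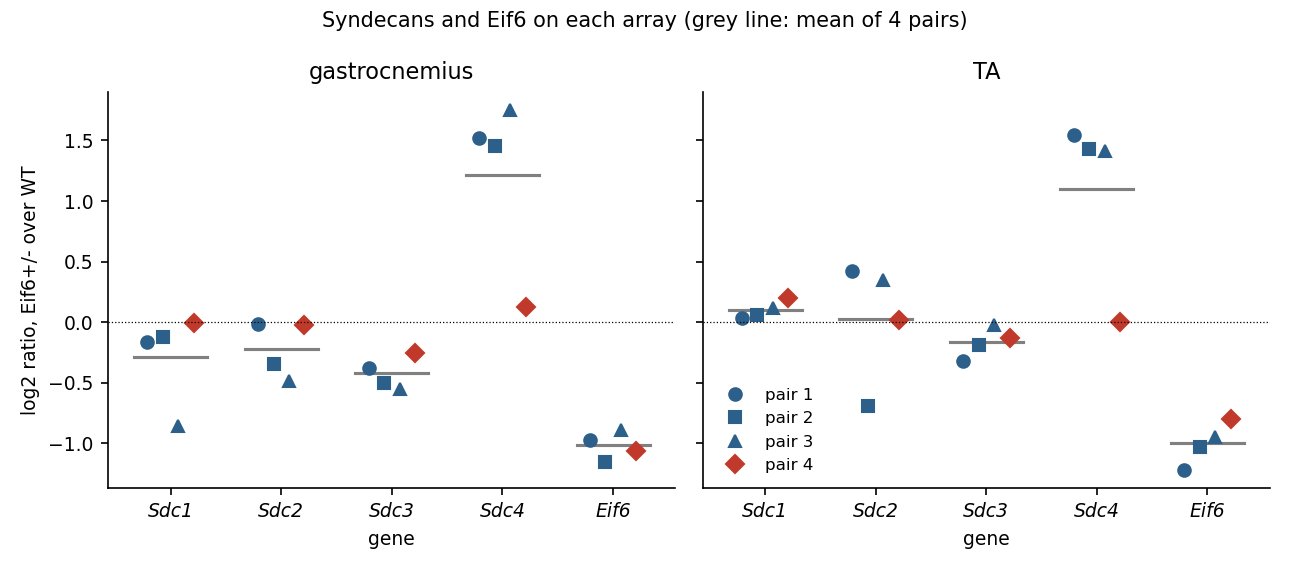
Log2 ratio of *Eif6*+/- over WT (vertical axis) of the 4 syndecans in *gastrocnemius* and TA, 1 point per pair, with pairs 1 to 3 in blue, pair 4 as red diamonds and the mean as a grey line. *Sdc4* lies between 1.42 and 1.75 in pairs 1 to 3 and at 0.12 and 0.0015 in pair 4, while the other syndecans lie between -0.86 and 0.42.

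The single channels show which sample moved. The log2 level of *Sdc4* in *Eif6*+/- samples was 8.50, 8.16, 8.53 and 8.33 in *gastrocnemius* pairs 1 to 4 and 8.43, 8.36, 8.52 and 8.29 in TA pairs 1 to 4. In WT samples it was 6.98, 6.71, 6.78 and 8.21 in *gastrocnemius* and 6.89, 6.93, 7.10 and 8.29 in TA. The *Eif6*+/- level was thus nearly flat over the 8 arrays (SD 0.13), whereas the WT level was low in pairs 1 to 3 of both muscles and high in pair 4 of both. Whether pair 4 of both muscles stands for the same WT mouse is not given by the labels. The WT samples of pair 4 lay within the range of the *Eif6*+/- samples, 8.16 to 8.53, and the other 6 WT samples lay below every *Eif6*+/- sample. In these bulk samples, fewer cells of a type and less RNA per cell cannot be told apart.

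The place of WT pair 4 was the same in the intensities as scanned, before any normalization, while the order among the other samples differed in part. The Cy3 (WT) intensity of the *Sdc4* probe was 75, 66, 80 and 191 in *gastrocnemius* pairs 1 to 4 and 61, 66.5, 86.5 and 269 in TA pairs 1 to 4. Its Cy5 (*Eif6*+/-) intensity was 482, 332, 433.5 and 471 in *gastrocnemius* and 403, 347.5, 501 and 356.5 in TA. In both muscles the Cy3 intensity of pair 4 lay above that of every other pair, and the Cy5 intensity of pair 4 lay among those of the others. Such intensities also depend on how bright an array is, and the median Cy3 intensity was highest in pair 4 of both muscles. It was 55 against 47.5 to 54 in *gastrocnemius* and 61 against 46 to 52 in TA. The local background of these spots was 18 to 22 in Cy3 and 39.5 to 47 in Cy5. The dyes ran the same way on pair 4 as on the other pairs.

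**Figure D2:**
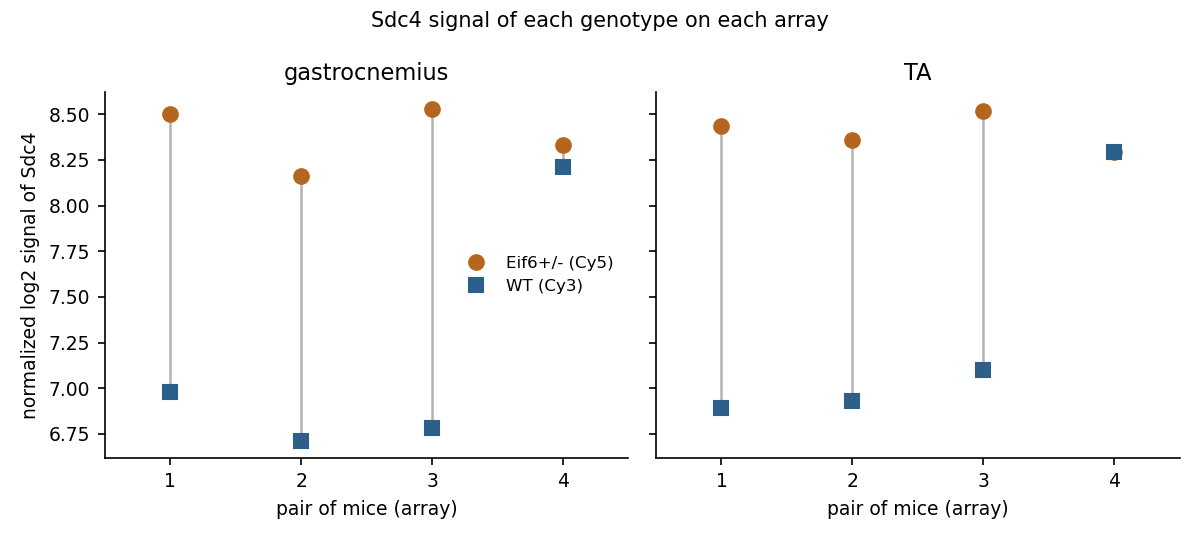
Normalized log2 level of *Sdc4* (vertical axis) in each pair of *gastrocnemius* and TA, with *Eif6*+/- as brown circles, WT as blue squares and a grey line joining the samples of an array. The *Eif6*+/- samples lie between 8.16 and 8.53 throughout, and the WT samples rise from at most 7.10 in pairs 1 to 3 to 8.21 and 8.29 in pair 4.

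The WT samples of pair 4 had a mean *Sdc4* level 1.35 log2 units, or 2.55-fold, above those of pairs 1 to 3. With other ways of normalizing, this difference was 1.35 (Aquantile), 1.54 (no background correction), 2.06 (no offset) and 2.44 (processed signals). In *Eif6*+/- samples, the same difference of *Sdc4* was -0.10, and it ranged from -0.11 to -0.08 with those alternatives. Between the lower of the WT samples of pair 4 and the highest of the other WT samples there was a gap of 1.11 log2 units for *Sdc4*. Of 12200 genes, only *BC048679*, with 1.19, had a larger gap, and the next after *Sdc4* was *Zfp939* with 0.74. The measure was chosen after the values of *Sdc4* had been seen and carries no test.

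The WT samples of pair 4 were above all other WT samples in 249 of 12200 genes (2.04%) and below them in 339 (2.78%). In *Eif6*+/- samples, pair 4 was above all others in 308 genes (2.52%) and below in 246 (2.02%). *Sdc4* was 1 of the 249 genes.

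Of 11 lists of cell type markers, 2 had their highest WT level in pair 4 in both muscles, as *Sdc4* did. The slow fibre markers, all 8 well above background and led by *Myl3*, summed to 15290, 67861, 42939 and 158686 in WT *gastrocnemius* pairs 1 to 4 and to 13082, 36353, 11494 and 40081 in WT TA. In *Eif6*+/- samples they summed to 141183, 32474, 49638 and 140861 in *gastrocnemius* and to 12942, 25424, 11002 and 14809 in TA. The adipocyte markers, led by *Fabp4*, with 4 to 6 of 6 well above background and *Lep* not so on all arrays of a muscle, summed to 17197, 14017, 11122 and 24092 in WT *gastrocnemius* and to 12946, 12366, 12970 and 13968 in WT TA. In *Eif6*+/- samples the adipocyte markers summed to 13920, 12791, 11581 and 13725 in *gastrocnemius* and to 12470, 12750, 16277 and 11701 in TA. The part of these cell types in the *Sdc4* level was not tested.

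*Sdc3*, the other syndecan of satellite cells, had log2 ratios of -0.38, -0.50, -0.55 and -0.25 in *gastrocnemius* pairs 1 to 4. In TA pairs 1 to 4 the ratios of *Sdc3* were -0.32, -0.19, -0.020 and -0.13. It was the only syndecan with a ratio below 0 on all 8 arrays, although 1 of the 4 TA arrays turned positive with loess alone (0.066), with processed signals (0.042) and with the deposited values (0.081). The mean was -0.42 ± 0.13 (SD, n = 4) in *gastrocnemius* and -0.16 ± 0.12 (SD, n = 4) in TA.

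The log2 level of *Sdc3* in *gastrocnemius* pairs 1 to 4 was 7.76, 7.71, 7.85 and 8.06 in *Eif6*+/- and 8.15, 8.21, 8.40 and 8.31 in WT. In TA the level of *Sdc3* was 7.84, 7.83, 7.72 and 7.82 in *Eif6*+/- and 8.16, 8.02, 7.74 and 7.96 in WT. The genotypes did not overlap in *gastrocnemius*, and in TA the WT sample of pair 3 lay within the *Eif6*+/- range. Unlike *Sdc4*, *Sdc3* did not set pair 4 apart in WT.

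Markers of satellite cells were summed as well. Of 10 such genes, 7 to 9 were well above background in a sample, *Myf5* was so on all arrays of no group, and *Cd34*, which endothelial cells also express, was the most abundant. Their summed level was 8806, 8054, 8579 and 8568 in WT *gastrocnemius*, 6059, 9109, 6650 and 8960 in WT TA, 7874, 8582, 7872 and 7609 in *Eif6*+/- *gastrocnemius*, and 8810, 7474, 9297 and 8449 in *Eif6*+/- TA. *Pax7*, the transcription factor that defines satellite cells, had mean log2 ratios of -0.09 ± 0.31 (SD, n = 4) in *gastrocnemius* and -0.08 ± 0.23 (SD, n = 4) in TA and was called in neither. Without pair 4, the mean ratio of *Pax7* in *gastrocnemius* was 0.06.

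*Sdc2*, the mesenchymal syndecan, had log2 ratios of -0.019, -0.35, -0.49 and -0.024 in *gastrocnemius* pairs 1 to 4. In TA pairs 1 to 4 the ratios of *Sdc2* were 0.42, -0.69, 0.34 and 0.016. All 4 arrays of *gastrocnemius* lay below 0, but only 3 with loess alone (highest 0.0046) and with processed signals (highest 0.013), and in TA 1 array, that of pair 2, lay below 0, or 2 arrays with processed signals. The mean was -0.22 ± 0.24 (SD, n = 4) in *gastrocnemius* and 0.02 ± 0.51 (SD, n = 4) in TA, where it was -0.0027 with processed signals, -0.11 without pair 1, 0.26 without pair 2 and -0.084 without pair 3.

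The log2 level of *Sdc2* in *gastrocnemius* pairs 1 to 4 was 8.99, 8.88, 8.65 and 8.97 in *Eif6*+/- and 9.01, 9.23, 9.14 and 8.999 in WT. In TA the level of *Sdc2* was 8.81, 8.26, 8.74 and 8.82 in *Eif6*+/- and 8.39, 8.95, 8.39 and 8.80 in WT. The lowest WT sample of *gastrocnemius* lay just above the highest *Eif6*+/- sample, and in TA the genotypes overlapped. TA pair 2 had both the lowest *Eif6*+/- and the highest WT level of *Sdc2* in TA.

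The fibroblast markers, 8 collagens and other matrix or surface genes led by *Col1a2* and all well above background, moved with *Sdc2* in that pair. Their summed level in TA pairs 1 to 4 was 62915, 96453, 40862 and 89686 in WT and 75564, 54555, 175484 and 78266 in *Eif6*+/-. In *gastrocnemius* it was 170931, 113744, 289643 and 135140 in WT and 172079, 117938, 113874 and 168102 in *Eif6*+/-. In TA pair 2 this level, too, was highest of the WT and lowest of the *Eif6*+/- samples. The samples ran in the same order for both in *Eif6*+/- *gastrocnemius*, and nearly so in WT TA. In WT *gastrocnemius*, however, pair 2 had the highest *Sdc2* level, 9.23, and the lowest fibroblast sum. In *Eif6*+/- TA, pair 3 had the highest sum, but its *Sdc2* level, 8.74, lay below those of pairs 1 and 4. The part of fibroblasts in the *Sdc2* ratio was not tested.

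*Sdc1*, the syndecan of epithelia and plasma cells, had log2 ratios of -0.16, -0.12, -0.86 and -0.0083 in *gastrocnemius* pairs 1 to 4. In TA pairs 1 to 4 the ratios of *Sdc1* were 0.031, 0.059, 0.12 and 0.20. They lay below 0 in *gastrocnemius* and above 0 in TA, but with loess alone 1 *gastrocnemius* array came to 0.017, and with processed signals 1 came to 0.032 and 1 TA array to -0.088. The mean was -0.29 ± 0.38 (SD, n = 4) in *gastrocnemius*, where pair 3 weighed most (-0.10 without it), and 0.10 ± 0.075 (SD, n = 4) in TA.

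The log2 level of *Sdc1* in *gastrocnemius* pairs 1 to 4 was 7.72, 7.53, 7.26 and 7.75 in *Eif6*+/- and 7.89, 7.66, 8.12 and 7.76 in WT. In TA the level of *Sdc1* was 6.996, 7.16, 7.45 and 7.19 in *Eif6*+/- and 6.97, 7.10, 7.33 and 6.99 in WT. The genotypes overlapped in both muscles, and *gastrocnemius* pair 3 held the highest WT and the lowest *Eif6*+/- level of that muscle. WT *gastrocnemius* pair 3 also had the highest fibroblast sum, 289643, and the highest macrophage sum.

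The macrophage markers were led by *Csf1r*, with 6 or 7 of the 7 that had a probe well above background. They summed to 7584, 3381, 8794 and 3705 in WT *gastrocnemius*, 2340, 2728, 2666 and 3336 in WT TA, 3429, 4161, 3586 and 3496 in *Eif6*+/- *gastrocnemius*, and 2857, 2014, 3208 and 3102 in *Eif6*+/- TA. Markers of the cells best known for *Sdc1* were near background. Of 5 plasma cell markers 1 to 3 were well above background in a sample, with *Jchain*, *Pou2af1* and *Tnfrsf17* not among the genes that could be tested, and their sum was 416 to 426 in WT *gastrocnemius* and 437 to 473 in WT TA. Of 6 epithelial markers 1 to 3 were well above background, and *Epcam* and *Cdh1* could not be tested. The part of these cell types in the *Sdc1* ratio was not tested.

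**Figure D3:**
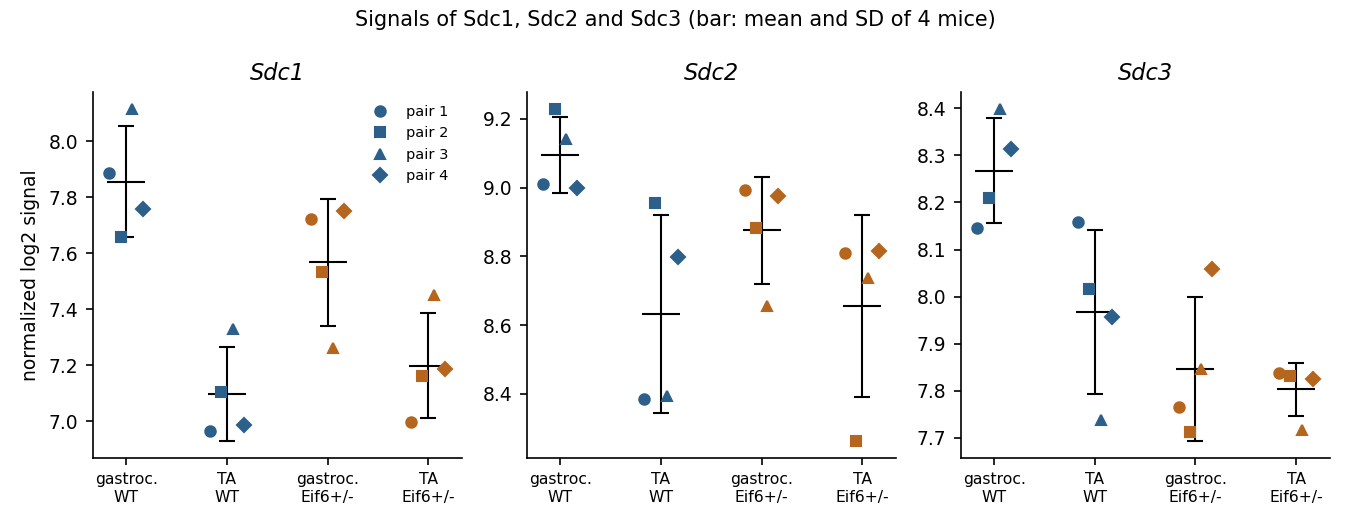
Normalized log2 level (vertical axis) of *Sdc1*, *Sdc2* and *Sdc3* in *gastrocnemius* and TA, WT in blue and *Eif6*+/- in brown, 1 symbol shape per pair, with the mean and SD. In WT the mean of *Sdc1* is 7.85 in *gastrocnemius* and 7.10 in TA, and the *Sdc3* samples of the 2 genotypes do not overlap in *gastrocnemius*.

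The genes lie apart in the genome, *Sdc1* on chromosome 12, *Sdc2* on 15, *Sdc3* on 4 and *Sdc4* on 2, which also holds *Eif6*. Between *Eif6* and *Sdc4* the annotation lists 192 genes, 101 of them protein-coding. These genes were looked at after the values of *Sdc4* had been seen, as a description. Of the 65 genes between them that could be measured in *gastrocnemius*, 6 were called higher in *Eif6*+/- (9.23%) and 10 lower (15.4%), against 9.85% and 5.53% of all 12609 genes tested, with a median log2 ratio of 0.03. In TA, 8 of 65 were called higher (12.3%) and 7 lower (10.8%), against 8.98% and 7.29% of all 12381 genes, with a median of 0.02. None of them had a mean ratio as high as that of *Sdc4*: the highest was *Gm826* with 1.103 in *gastrocnemius* and *Matn4* with 0.48 in TA. The lowest was *Jph2* in both muscles, with -0.78 in *gastrocnemius* and -0.74 in TA. Of 64 genes in the span, the WT samples of pair 4 lay above all other WT samples in 3 (4.69%), against 2.04% of all 12200 genes. The 3 were *Adig*, *Gm826* and *Lpin3*, with gaps of 0.50, 0.19 and 0.02. In *gastrocnemius*, 5 were called higher and 3 lower without pair 2, and none without pair 3 or pair 4. In TA, 0 were called higher and 1 lower without pair 1, 5 and 2 without pair 2, and 5 and 6 without pair 3.

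Promoter windows, 250 bases before to 50 after the start of the gene, were at hand in RefSeq (GRCm38.p6) for 3 of the 4 syndecans and are shown so that the gene with the high ratio can be set beside *Sdc1* and *Sdc3*. *Sdc4* lies at chr2:164443139-164443438 on the minus strand, *Sdc1* at chr12:8771146-8771445 and *Sdc3* at chr4:130792287-130792586 on the plus strand. Capitals mark the motifs searched on both strands, GGGCGG (the GC box), GGGAATTCC (like the site of NF-kappaB) and TATAA (like the TATA box).
Sdc4: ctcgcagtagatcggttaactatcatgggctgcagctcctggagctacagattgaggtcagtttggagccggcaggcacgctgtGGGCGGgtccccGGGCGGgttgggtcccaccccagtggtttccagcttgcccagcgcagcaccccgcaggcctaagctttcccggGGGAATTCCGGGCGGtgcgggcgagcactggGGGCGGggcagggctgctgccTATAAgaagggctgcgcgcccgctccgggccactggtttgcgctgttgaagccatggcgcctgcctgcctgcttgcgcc
Sdc1: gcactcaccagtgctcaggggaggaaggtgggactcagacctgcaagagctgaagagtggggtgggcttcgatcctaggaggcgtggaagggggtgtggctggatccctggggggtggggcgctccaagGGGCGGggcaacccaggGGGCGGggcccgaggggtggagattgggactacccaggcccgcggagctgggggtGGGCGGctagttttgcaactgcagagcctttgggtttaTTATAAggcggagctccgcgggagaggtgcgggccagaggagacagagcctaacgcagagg
Sdc3: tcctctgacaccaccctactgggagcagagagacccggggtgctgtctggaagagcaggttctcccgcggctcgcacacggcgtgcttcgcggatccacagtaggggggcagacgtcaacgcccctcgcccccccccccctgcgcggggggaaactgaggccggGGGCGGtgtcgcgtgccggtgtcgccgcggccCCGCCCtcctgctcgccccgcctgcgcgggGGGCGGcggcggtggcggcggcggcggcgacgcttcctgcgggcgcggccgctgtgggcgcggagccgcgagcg
The motifs were chosen after the windows had been read. *Sdc4* held GGGCGG 4 times, GGGAATTCC 1 time and TATAA 1 time, with none overlapping. *Sdc1* held GGGCGG 3 times and TATAA 2 times, on opposite strands and overlapping, and *Sdc3* held GGGCGG 3 times, 1 of them as CCGCCC. Of 32851 windows of the same length, 35.7% held GGGCGG, 0.225% GGGAATTCC and 24.9% TATAA. GC content was 67.7% for *Sdc4*, 66.3% for *Sdc1* and 77.7% for *Sdc3*, against a median of 52.7%. A match is a description, not a site or a cause.

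The 8 genes with ratios nearest to *Sdc4* over the 8 arrays, of 12199 others, were named by their mean absolute difference from it on the log2 scale. *Gm826*, from the span between *Eif6* and *Sdc4*, was nearest (0.50), then *Adamts8*, a secreted protease (0.55), *Mdh1* and *Mdh2*, the malate dehydrogenases of cytosol and mitochondrion (both 0.61), *Lrtm2* (0.64), *Dynlt1c*, a dynein light chain (0.64), *Slc25a4*, the mitochondrial ADP/ATP carrier of muscle (0.65), and *Igsf1* (0.66). So no gene followed *Sdc4* closely: even the nearest differed from it by 0.50 on average. *Gm826* had ratios of 1.38, 1.06, 1.498 and 0.47 in *gastrocnemius* pairs 1 to 4 and 0.15, 1.095, 0.66 and -0.40 in TA. Its WT level was 6.58 to 7.43 in pairs 1 to 3 and 7.62 and 7.91 in pair 4, so it shared the rise of WT pair 4 with *Sdc4*, while its *Eif6*+/- level was 7.51 to 8.22. Of the other 7, none had both WT samples of pair 4 above all other WT samples of both muscles. *Igsf1* came nearest, at 7.60 and 8.19 against 6.93 to 7.61. Within each muscle taken alone, however, pair 4 was the highest WT sample for each of these genes except *Lrtm2*. For *Lrtm2*, WT TA pair 3 lay higher, at 9.31 against 8.72 in pair 4. All 8 genes were picked for ratios near those of *Sdc4*, which are low in pair 4. A high WT level in pair 4 may thus follow in part from the choice.

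**Figure D4:**
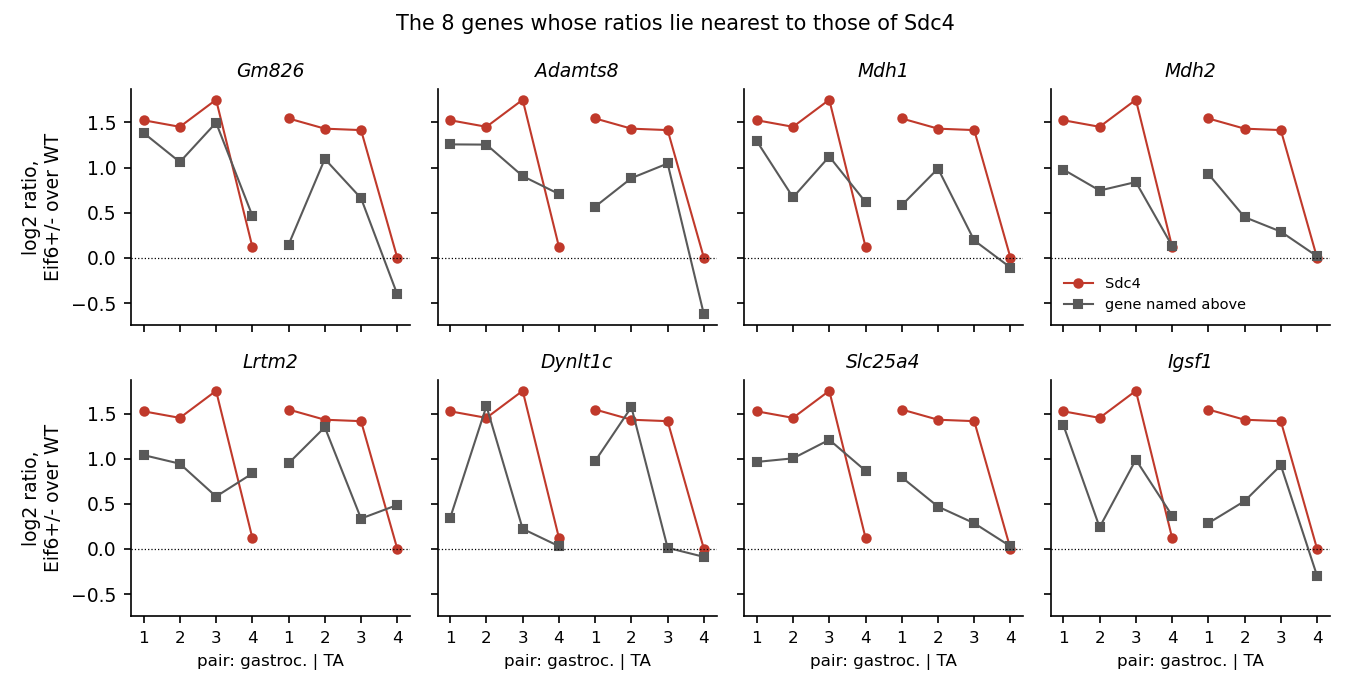
Log2 ratio of *Eif6*+/- over WT (vertical axis) on each of the 8 arrays (horizontal axis), 1 panel for each of the 8 genes nearest to *Sdc4*, with *Sdc4* in red and the named gene in grey. The mean absolute difference from *Sdc4* runs from 0.50 for *Gm826* to 0.66 for *Igsf1*.

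The level of the syndecans was then compared between the muscles within a genotype, a comparison that keeps to 1 dye. The intensities of *Sdc4* entered the choice of the family, so *Sdc4* is given here with no test. The channels of *Sdc1*, *Sdc2* and *Sdc3* make up the ratios the family was chosen by. Their tests here are therefore not independent of that choice. In WT, *Sdc1*, *Sdc2* and *Sdc3* were all 3 called higher in *gastrocnemius* than in TA, in a comparison where 22.8% of 11841 genes were called, 8.76% higher and 14.1% lower. *Sdc1* differed most, from 7.10 ± 0.17 in TA to 7.85 ± 0.20 in *gastrocnemius* (log2 level, SD, n = 4), and all 4 *gastrocnemius* samples lay above all 4 TA samples. Its difference was 0.76, a fold of 1.69, with a 95% interval of 0.49 to 1.02 and an adjusted p of 0.00636 (limma). *Sdc1* was also called with each pair left out.

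*Sdc2* was 0.46 higher in WT *gastrocnemius* than in TA (95% interval 0.16 to 0.76, limma adjusted p = 0.0525), a fold of 1.38. All 4 *gastrocnemius* samples lay above the TA samples, but the call was lost without pair 1 (0.41, adjusted p = 0.117) and without pair 3 (0.37, adjusted p = 0.238). *Sdc3* was 0.30 higher (95% interval 0.07 to 0.53, limma adjusted p = 0.0836), a fold of 1.23, with an overlap between TA pair 1 and *gastrocnemius* pair 1. That call was lost with processed signals (0.41, adjusted p = 0.128), with no filter on dim probes (0.30, adjusted p = 0.129), and without pair 2 (0.34, adjusted p = 0.160), pair 3 (0.18, adjusted p = 0.369) or pair 4 (0.28, adjusted p = 0.240). The mean level of *Sdc4* in WT was 7.17 ± 0.70 in *gastrocnemius* and 7.30 ± 0.67 in TA (SD, n = 4), a difference of -0.13, with pair 4 highest in both muscles.

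In *Eif6*+/-, 1 of these 3 syndecans, *Sdc1*, was called higher in *gastrocnemius* and none lower, where 16.7% of 12616 genes were called, 6.73% higher and 9.97% lower. *Sdc1* had a level of 7.57 ± 0.23 in *gastrocnemius* and 7.20 ± 0.19 in TA (SD, n = 4), and TA pair 3 lay above *gastrocnemius* pair 3. The difference of *Sdc1* was 0.37, a fold of 1.29 (95% interval 0.10 to 0.64, limma adjusted p = 0.0927). Its call was lost with Aquantile (0.35, adjusted p = 0.130), with processed signals (0.64, adjusted p = 0.110), with no filter (0.37, adjusted p = 0.149), and without pair 1 (0.25, adjusted p = 0.392), pair 2 (0.37, adjusted p = 0.268) or pair 4 (0.30, adjusted p = 0.291). *Sdc2*, with 0.22 (95% interval -0.06 to 0.50), and *Sdc3*, with 0.04 (-0.14 to 0.22), were not called (limma adjusted p = 0.308 and 0.784), and *Sdc3* came to -0.02 without pair 4. The difference of *Sdc4*, again with no test, was -0.02, and it came to 0.04 both with processed signals and without pair 2. No test is given of whether the muscle difference of a syndecan differs by genotype, since that contrast is made of the ratios the family was chosen by.

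**Figure D5:**
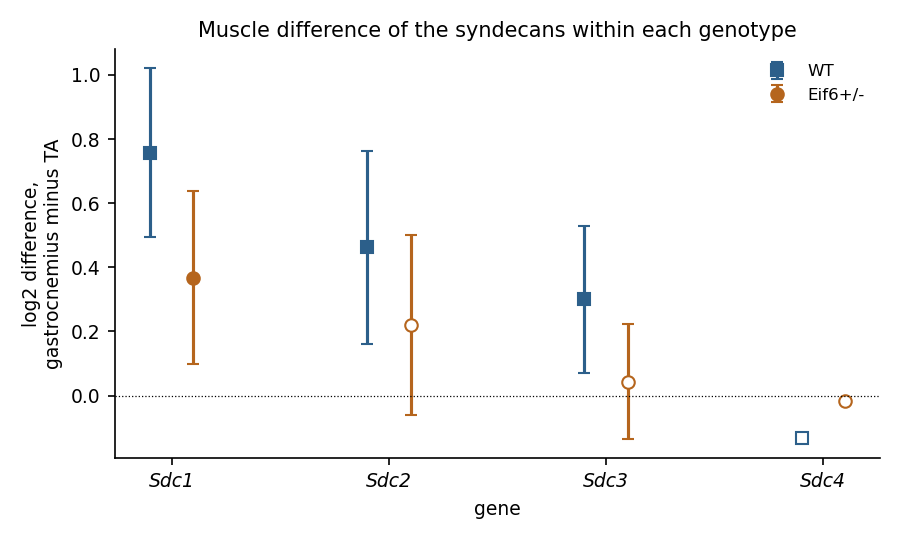
Log2 level in *gastrocnemius* minus TA (mean and 95% interval) of each syndecan, WT as squares and *Eif6*+/- as circles, filled where the adjusted p is under 0.1, with *Sdc4* as a mean without interval or test. In WT, *Sdc1* (0.76), *Sdc2* (0.46) and *Sdc3* (0.30) are filled, and in *Eif6*+/- only *Sdc1* (0.37).

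Markers of several cell types were higher in *gastrocnemius* as well. In WT, 6 of 8 slow fibre, 6 of 8 fibroblast, 5 of 6 macrophage, 4 of 5 adipocyte and 1 of 6 nerve markers were called higher, with medians of 2.11, 0.97, 0.88, 2.29 and 0.36 against -0.03 over all genes, of which 8.76% were called higher. Without pair 3 these counts were 2, 4, 1, 4 and 1, without pair 1 they were 6, 4, 0, 4 and 0, and without pairs 2 or 4 no nerve marker was called. In *Eif6*+/-, 8 of 8 slow fibre, 3 of 8 fibroblast, 3 of 6 macrophage, 3 of 5 adipocyte and 5 of 6 nerve markers were called higher, and 1 adipocyte marker lower (with any pair left out it was not called), with medians of 2.23, 0.51, 0.30, 1.54 and 0.53 against -0.02 over all genes, of which 6.73% were called higher. Without pair 1 these were 3, 0, 0, 0 and 0, without pair 2 they were 8, 1, 1, 0 and 1, without pair 3 they were 7, 5, 3, 4 and 5, and without pair 4 they were 6, 1, 1, 0 and 1. Over all genes, 14.1% were called lower in WT and 9.97% in *Eif6*+/-. Endothelial markers were called lower in 2 of 8 in each genotype, with medians of -0.22 in WT and -0.15 in *Eif6*+/-. Their count was 1 in WT with any pair left out, and in *Eif6*+/- it was 0 without pair 1, 1 without pair 2 and 3 without pair 3. Neutrophil and blood markers were called higher in 0 of 5 in WT and in 2 of 5 in *Eif6*+/- (0 without pair 1 or pair 2, 1 without pair 4), with medians of -0.13 and 0.27. The nerve markers, all 6 well above background and led by *Pmp22*, summed to 5052, 5558, 2502 and 3879 in WT *gastrocnemius* and to 2417, 3093, 2315 and 2877 in WT TA. In *Eif6*+/- they summed to 4114, 4778, 2404 and 4461 in *gastrocnemius* and to 2180, 2152, 2292 and 2107 in TA, and the sums of the slow fibre, adipocyte, fibroblast and macrophage markers are those given beside *Sdc4*, *Sdc2* and *Sdc1*. No satellite cell marker was called in WT (0 of 8), 1 of 9 was called higher and 1 lower in *Eif6*+/- (none without pair 1 or pair 4, 1 higher and 0 lower without pair 2), and *Prdm1*, the only plasma cell marker tested in WT, was lower in *gastrocnemius* (-0.38; not called without pair 3). The part of these cell types in the higher *Sdc1*, *Sdc2* and *Sdc3* levels was not tested.

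The genes that build, edit, shed or bind the syndecans were followed in 7 lists, and immediate early genes, which respond to handling and stress, in 1 more. In *gastrocnemius*, 30 of 147 (20.4%) were called between genotypes, 10 higher and 20 lower in *Eif6*+/-, where 15.4% of 12609 genes were called, 9.85% higher and 5.53% lower. Without pair 3 or pair 4 none was called, nor any of all genes, of which 1939 were called with 4 pairs (at an unadjusted limma p under 0.05 there were 2424 without pair 3 and 2649 without pair 4). The count of the lists was 20 with processed signals, 49 with SAM at an FDR of 0.1 and 10 with the unpaired test of the methods after adjustment. Cytoplasmic partners of syndecans held 10 of these calls (1 of 28 higher, 9 lower, median -0.15 against 0.02 over all genes), among them *Gipc1*, which binds the syndecan tail, at -0.40 ± 0.14 (SD, n = 4, limma adjusted p = 0.0420), with 0.146 without pair 3 and 0.164 without pair 4. Partner receptors had 1 of 26 higher and 5 lower (median -0.10), other heparan sulfate proteoglycans 1 of 12 higher and 2 lower (-0.09), and shedding proteases and their inhibitors 2 of 11 lower (0.03). Chain assembly had 1 of 21 higher and 1 lower (-0.00), chain editing 2 of 11 higher (-0.20), ligands 1 of 21 higher (0.04), and immediate early genes 3 of 17 higher and 1 lower (0.06). *Hs2st1*, which adds the 2-O-sulfate to the chains, was higher by 0.81 ± 0.20 (SD, n = 4, limma adjusted p = 0.0269), with 0.121 without pair 3 and 0.156 without pair 4.

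In TA, 20 of 145 genes of these lists (13.8%) were called, 13 higher and 7 lower in *Eif6*+/-, where 16.3% of 12381 genes were called, 8.98% higher and 7.29% lower. The count was 8 with processed signals (5 higher and 3 lower), 33 with SAM at an FDR of 0.1 and 13 with the unpaired test after adjustment. Without pair 1 the count of the lists was 2 and without pair 2 it was 10, and over all genes, 2014 were called, against 68 without pair 1, 531 without pair 2 and 1185 without pair 3. *Hs2st1* was again higher, by 0.57 ± 0.11 (SD, n = 4, limma adjusted p = 0.0119), as was *Sgsh*, which removes sulfate when the chains are broken down, by 0.52 ± 0.10 (SD, n = 4, limma adjusted p = 0.0136). Both kept their call with each pair left out, with an adjusted p of at most 0.0987. Chain assembly had 3 of 21 higher and 2 lower (median -0.01 against 0.02 over all genes), chain editing 2 of 10 higher (0.07), shedding 1 of 11 lower (0.09), and cytoplasmic partners 2 of 28 higher and 3 lower (-0.00). Other proteoglycans had 1 of 12 higher (0.01), ligands 1 of 20 higher (0.06), partner receptors 2 of 26 higher (-0.03), and immediate early genes 2 of 17 higher and 1 lower (0.24).

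Whether a genotype difference itself differed between the muscles was tested with limma across all genes, and 0 of 12200 (0%) were called, with 995 at an unadjusted p under 0.05. The syndecans are among the genes of that fit, and nothing is read from it about them. No gene of the 8 lists was called. Without pair 2 the count over all genes was 6.

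Between the muscles of WT mice, 39 of 142 genes of the lists (27.5%) were called, 27 higher and 12 lower in *gastrocnemius*, where 22.8% of all genes were called, 8.76% higher and 14.1% lower. The count was 25 of 177 with no filter on dim probes, and it was 25 without pair 2, 11 without pair 3 and 19 without pair 4, and that of all genes, 2704, was 1758, 891 and 1519. Cytoplasmic partners had 7 of 28 higher (median 0.16 against -0.03 over all genes), partner receptors 6 of 26 higher and 2 lower (0.05), ligands 6 of 20 higher and 4 lower (0.06), and shedding proteases and inhibitors 3 of 11 higher and 2 lower (0.18). Cytoplasmic partners had 3 higher without pair 2 and 1 without pair 3 or pair 4. Partner receptors had 3 higher without pair 2 or pair 4 and 2 without pair 3. Ligands had 2 higher and 4 lower without pair 1, and 1 higher and 0 lower without pair 3. Chain editing had 2 of 10 higher (0.09), chain assembly 1 of 20 higher and 1 lower (-0.01), other proteoglycans 1 of 11 higher and 2 lower (0.04), and immediate early genes 1 of 16 higher and 1 lower (-0.01). *Fgfr1*, a growth factor receptor that heparan sulfate helps to engage, was higher by 0.80 (limma adjusted p = 0.00382), and *Sulf2*, which strips sulfate from chains at the cell surface, by 1.18 (limma adjusted p = 0.0281). Both were called with each pair left out.

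In *Eif6*+/- mice, 34 of 147 genes of the lists (23.1%) were called between the muscles, 18 higher and 16 lower in *gastrocnemius*, where 16.7% of all genes were called, 6.73% higher and 9.97% lower. The count was 2 without pair 1, 14 without pair 2 and 5 without pair 4, and that of all genes, 2107, was 170, 512 and 491. *Fgfr1* was again higher, by 0.57 (limma adjusted p = 0.00471), and was called with each pair left out. Ligands had 4 of 21 higher and 2 lower (median 0.03 against -0.02 over all genes), shedding proteases and inhibitors 4 of 11 higher (0.12), partner receptors 3 of 26 higher and 4 lower (-0.03), and cytoplasmic partners 2 of 28 higher and 3 lower (0.04). Chain editing had 2 of 11 higher (-0.02), chain assembly 1 of 21 higher (0.02), other proteoglycans 1 of 12 higher and 4 lower (-0.12), and immediate early genes 1 of 17 higher and 3 lower (-0.06).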

How the data were processed

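The authors deposited 1 scanner file per array, made with Agilent Feature Extraction 10.5.1.1, which holds the median intensity of each spot and of its local background in each dye, processed signals in intensity units, marks for the quality of each spot and a ratio of the dyes (Cy5 to Cy3) as log10. The authors also deposited a table of log2 ratios per spot, which matched loess-normalized ratios of uncorrected intensities computed here (r from 0.999963 to 0.999996), with column medians, by pair number, of 0.00257, 0.000831, -0.00441 and 0.00375 in *gastrocnemius*, and in TA of 0.00138, -0.000366, 0.00288 and 0.00212. The methods name quantile normalization, which that table had not undergone. The methods name the labelling with Cy3 only, so the dye of each genotype was taken from the labels.

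Median intensities were background-corrected (limma 3.58.1 in R 4.3.3, normexp, offset 50), normalized by loess within arrays with control spots at weight 0 and then by quantiles over the 16 channels; spots marked as outliers were left out and spots of a probe averaged. Probes were named by RefSeq accession with a gene table of GRCm38.p6 used for names and gene order (27235 of 55681 probes), and a gene was counted by its brightest probe. Genotype tests used the log2 ratios of 4 arrays and probes that on all 4 were well above background in 1 or both channels (23802 probes in *gastrocnemius*, 23391 in TA). The difference of the genotype ratios between the muscles used the 22765 probes kept in both. Muscle tests used 1 channel, 4 arrays against 4, and probes well above background in it on all 4 arrays of a muscle (21519 in WT, 23929 in *Eif6*+/-). All tests were limma's, adjusted by Benjamini-Hochberg over the probes kept, and code was tested on simulated data. Plots were drawn with Python 3.11.15 and matplotlib 3.10.9.

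The members and lists were chosen with earlier results of these data known. Genes to name were *Eif6*, the syndecans, *Ext1*, *Ext2*, *Ndst1*, *Sulf1*, *Adam17*, *Sdcbp*, *Cask*, *Gipc1*, *Prkca*, *Gpc1*, *Hspg2*, *Agrn*, *Fgf2*, *Fn1*, *Fgfr1*, *Itgb1* and *Pax7*; in addition, per list and comparison, up to 3 called genes higher and 3 lower with the largest mean (for genotype, of the same sign on all 4 arrays); and the 8 genes nearest to *Sdc4*. Of these, the text gives the ones that carry a statement. *BC048679*, *Zfp939* and the genes between *Eif6* and *Sdc4* fall outside this rule and were named after their values were seen. Alternatives were other normalizations and background corrections, processed signals, the deposited ratios, other filters on dim probes, SAM, the unpaired test of the methods, a block for the pair number, and leaving out each pair.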

Additional observations from a re-analysis of the deposited data

Results flagged for a closer look

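The log2 ratios and levels of the syndecans and of the named genes were looked at in 213 sets of 4 samples for a sample far from the other 3, and 13 sets (6.10%) held one; chance gives about 1 in 20 independent sets. These sets were not independent, since ratios and levels come from the same samples, so the share is given as a description and not as a test. Of the 13 sets, 4 were of syndecans, and the 2 of *Sdc4* hold the values the family was chosen by. The *Sdc4* ratio of TA pair 4 was 0.0015 against 1.42 to 1.54 in the other pairs, and the WT level of *Sdc4* in TA pair 4 was 8.29 against 6.89 to 7.10. The *Eif6*+/- level of *Sdc2* in TA pair 2 was 8.26 against 8.74 to 8.82. The *Eif6*+/- level of *Sdc3* in TA pair 3 was 7.72 against 7.82 to 7.84.

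The other 9 concern named genes of the lists. Among ratios in *gastrocnemius*, *Fzd7* stood at -0.88 in pair 2 against -0.33 to -0.28, and *Sdcbp* at 0.34 in pair 2 against -0.38 to -0.33. Among ratios in TA, *Adam17* stood at 0.17 in pair 2 against 0.00054 to 0.014, *Ext2* at -0.17 in pair 3 against 0.021 to 0.045, and *Per1* at 1.38 in pair 1 against 0.27 to 0.40. Among log2 levels in WT, *Hbegf* stood at 9.41 in *gastrocnemius* pair 4 against 9.63 to 9.67, *Mmp2* at 11.75 in *gastrocnemius* pair 3 against 10.53 to 10.69, and *Rhbdf2* at 8.27 in TA pair 4 against 8.40 to 8.42. In *Eif6*+/-, the log2 level of *Flt1* stood at 10.83 in *gastrocnemius* pair 2 against 11.04 to 11.08.

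*Sdc1* had ratios below 0 in all 4 *gastrocnemius* pairs and above 0 in all 4 TA pairs, with a difference of the means of -0.39, and this difference between the muscles was not tested on its own, since the family was chosen by these ratios. The split of signs was lost with loess alone (1 *gastrocnemius* array at 0.017). It was also lost with processed signals (1 *gastrocnemius* array at 0.032 and 1 TA array at -0.088). Without pair 3 the *gastrocnemius* mean was -0.10.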

How the results depend on the processing

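The mean ratios of the syndecans kept within 1 SD in 37 of 40 recomputed values; the others came from processed signals, with -0.59 for *Sdc3* in *gastrocnemius* and 2.06 and 2.03 for *Sdc4* in *gastrocnemius* and TA. With each pair left out in turn, the ratio in *gastrocnemius* ranged from -0.38 to -0.10 for *Sdc1*, -0.29 to -0.13 for *Sdc2*, -0.48 to -0.38 for *Sdc3* and 1.03 to 1.58 for *Sdc4*. In TA the ranges were 0.07 to 0.13, -0.11 to 0.26, -0.21 to -0.11 and 0.95 to 1.46. Each syndecan has 1 probe, so the other probes of a gene could not be tried. Signal over background limits what was tested, since at most 48.6% of the probes of an array and channel were well above it.

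The labels do not say whether a pair number stands for the same mice in both muscles. As a hint from the data, across genes, r between *gastrocnemius* and TA of the same number was -0.14, 0.02, -0.36 and 0.09 for the ratios, -0.38, 0.11, -0.08 and 0.18 in WT and 0.18, 0.02, 0.02 and 0.15 in *Eif6*+/-; the best match in TA had the same number for WT pair 4 and for *Eif6*+/- pairs 1 and 4, and for no pair by ratio. With the pair number as a block, adjusted p was 0.178 for *Sdc3* in WT (0.30) and 0.148 for *Sdc1* in *Eif6*+/- (0.37). Other calls lost were those of *Sdc3* in WT with processed signals (0.41) and no filter (0.30), and of *Sdc1* in *Eif6*+/- with Aquantile (0.35), processed signals (0.64) and no filter (0.37). *Sdc4* in *Eif6*+/- turned to 0.039 with processed signals. Leaving out pairs, the WT muscle difference ranged from 0.70 to 0.83 for *Sdc1*, 0.37 to 0.55 for *Sdc2*, 0.18 to 0.40 for *Sdc3* and -0.21 to -0.07 for *Sdc4*, and the *Eif6*+/- one from 0.25 to 0.55, 0.09 to 0.32, -0.021 to 0.10 and -0.047 to 0.042.

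Genes called between genotypes in *gastrocnemius* came to 1204 with processed signals, 3235 with SAM at an FDR of 0.1, 3049 with the unpaired test unadjusted, 977 with it adjusted, and 0 to 1766 with a pair left out. In TA they came to 1215 with no offset, 844 with processed signals, 3136 with SAM, 878 with the unpaired test adjusted, and 68 to 2020 with a pair left out. The muscle comparison gave 891 to 2460 in WT and 170 to 2539 in *Eif6*+/- with a pair left out, and the difference of genotype ratios between muscles 1 with processed signals and 0 to 6 with a pair left out.

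Of 576 counts of calls in the lists under settings that keep all pairs, 453 stayed within 1.5 times the first count and 123 did not, nor did 147 of 256 with a pair left out. Of 1336 values of named genes under settings that keep all pairs, 1197 kept direction and side of the threshold, 133 lost and 5 gained a call, and 1 turned, *Gipc1* between the muscles of *Eif6*+/- (-0.04, 0.019 with processed signals). With a pair left out, 350 of 608 kept both and 22 turned. Those ranges in *gastrocnemius* were -0.10 to 0.066 for *Cask*, -0.14 to 0.024 for *Fgfr1*, -0.26 to 0.036 for *Ndst1*, -0.17 to 0.061 for *Pax7* and -0.33 to 0.010 for *Sulf1*. In TA they were -0.039 to 0.033 for *Ext2*, -0.094 to 0.90 for *Fn1*, -0.23 to 0.072 for *Hspg2*, -0.043 to 0.16 for *Sdcbp* and -0.021 to 0.21 for *Sulf1*. Between muscles of WT they were -0.088 to 0.16 for *Ext1*, -0.079 to 0.19 for *Gipc1*, -0.0065 to 0.074 for *Gpc1*, -0.072 to 0.22 for *Hspg2*, -0.15 to 0.17 for *Ndst1* and -0.015 to 0.23 for *Sdcbp*, and of *Eif6*+/-, -0.078 to 0.0027 for *Gipc1*. The cause of these changes was not tested.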

Other observations

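Markers of other cell types were also counted between genotypes. In TA, called genes were lower in *Eif6*+/- among neutrophil and blood markers (5 of 5, median log2 ratio -0.72), slow fibre markers (4 of 8, -0.45), endothelial markers (4 of 8, -0.22), nerve markers (3 of 6, -0.25) and macrophage markers (1 of 6, 0.0045), and higher among adipocyte markers (3 of 5, 0.60), against a median of 0.02 over all genes, of which 7.29% were called lower and 8.98% higher. Without pair 1, none of these was called. In the same order the counts were 5, 2, 2, 1, 0 and 4 without pair 2 (where 1 macrophage marker was called higher), 5, 4, 4, 2, 1 and 1 without pair 3, and 5, 4, 2, 1, 0 and 1 without pair 4. Of 11 markers of the muscle fibre, 1 was called higher and 2 lower in TA (1 and 0 without pair 1, 1 and 1 without pair 2 or pair 3, 1 and 4 without pair 4), and no satellite cell, fibroblast, plasma cell or epithelial marker was called (1 fibroblast marker was, higher without pair 2 and lower without pair 3).

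In *gastrocnemius*, markers called lower in *Eif6*+/- were 3 of 11 of the muscle fibre (1 higher), 2 of 8 endothelial, 1 of 8 fibroblast, 1 of 6 macrophage and 1 of 5 adipocyte, and 1 of 8 satellite cell markers was called higher. Over all genes, 5.53% were called lower and 9.85% higher. The medians of these lists, in the same order, were 0.05, -0.14, -0.30, -0.59, -0.24 and -0.15, against 0.02 over all genes. No slow fibre, neutrophil and blood, plasma cell, epithelial or nerve marker was called, and without pair 3 or pair 4 no marker was called by limma. Without pair 1, muscle fibre markers were called higher in 4 and lower in 3, and 3 endothelial, 1 fibroblast, 3 slow fibre and 3 neutrophil and blood markers were called lower, with no macrophage, adipocyte or satellite cell marker called. Without pair 2, muscle fibre markers were called higher in 2 and lower in 1, and 2 endothelial, 3 fibroblast, 4 macrophage and 1 adipocyte markers were called lower, with 1 satellite cell marker called higher.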
